A study of Homo sapiens with 8 samples.

Results

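The 10 genes described here encode transcription factors that respond to blood flow or to acute stimulation of endothelial cells: KLF2, KLF4, KLF6, KLF9, KLF10, EGR1, FOS, JUN, ATF3 and MEF2C. They were chosen by gene symbol, and all 10 were among the 30386 genes of the deposited count table. RNA sequencing compared endothelial cells (iEC, 4 samples) with retinal endothelial cells (iREC, 4 samples). Both were differentiated from WTC-TJP1, a human induced pluripotent stem cell line, and harvested at passage 1. No flow, drug or other treatment is given in the labels for either group, and they name the same cell type for both. The samples carry the letters C, D, E and F in each group. The labels do not say whether these were separate differentiations, so p-values measure the spread between these samples, which may be technical. All samples come from 1 cell line. In bulk RNA, fewer cells expressing a gene and less RNA per cell cannot be told apart.

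Endothelial cells sense the drag of flowing blood through junctional and membrane proteins. Steady laminar flow activates a kinase relay (MEKK3, MEK5 and ERK5) that ends on MEF2 factors, which switch on KLF2 and KLF4. These 2 factors in turn raise vasodilator and anticoagulant genes and hold down inflammatory ones. EGR1, FOS, JUN and ATF3 are immediate early genes, transcribed within minutes of growth factor, stress or disturbed flow signals. FOS and JUN family proteins pair to form the factor AP-1.

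Most of these regulators were lower in iREC. KLF2, the main laminar flow factor, was 13.3-fold lower, and EGR1, JUN and MEF2C were between 3.01-fold and 4.88-fold lower. KLF6 and KLF10 fell by less, and KLF9 rose by 1.89-fold. FOS, ATF3 and KLF4 did not pass the test. All 10 genes passed the filter on low counts, and 7 had an adjusted p under 0.05 in the quasi-likelihood test of edgeR, against 25.0% of the 15330 genes tested. Of the 7, 6 were lower in iREC (11.7% of tested genes were called lower) and 1 was higher (13.2% were called higher). The groups did not overlap in 6 of the 10 genes, against 29.1% of tested genes. Since the genes were picked with results of these data known, these shares describe the 10 genes and test nothing. Without iEC E, iREC D or iREC E, 4 genes were called, and the share over all tested genes in those fits is not given here. KLF2, JUN and MEF2C were called in every fit that left out a sample.

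**Figure D1:**
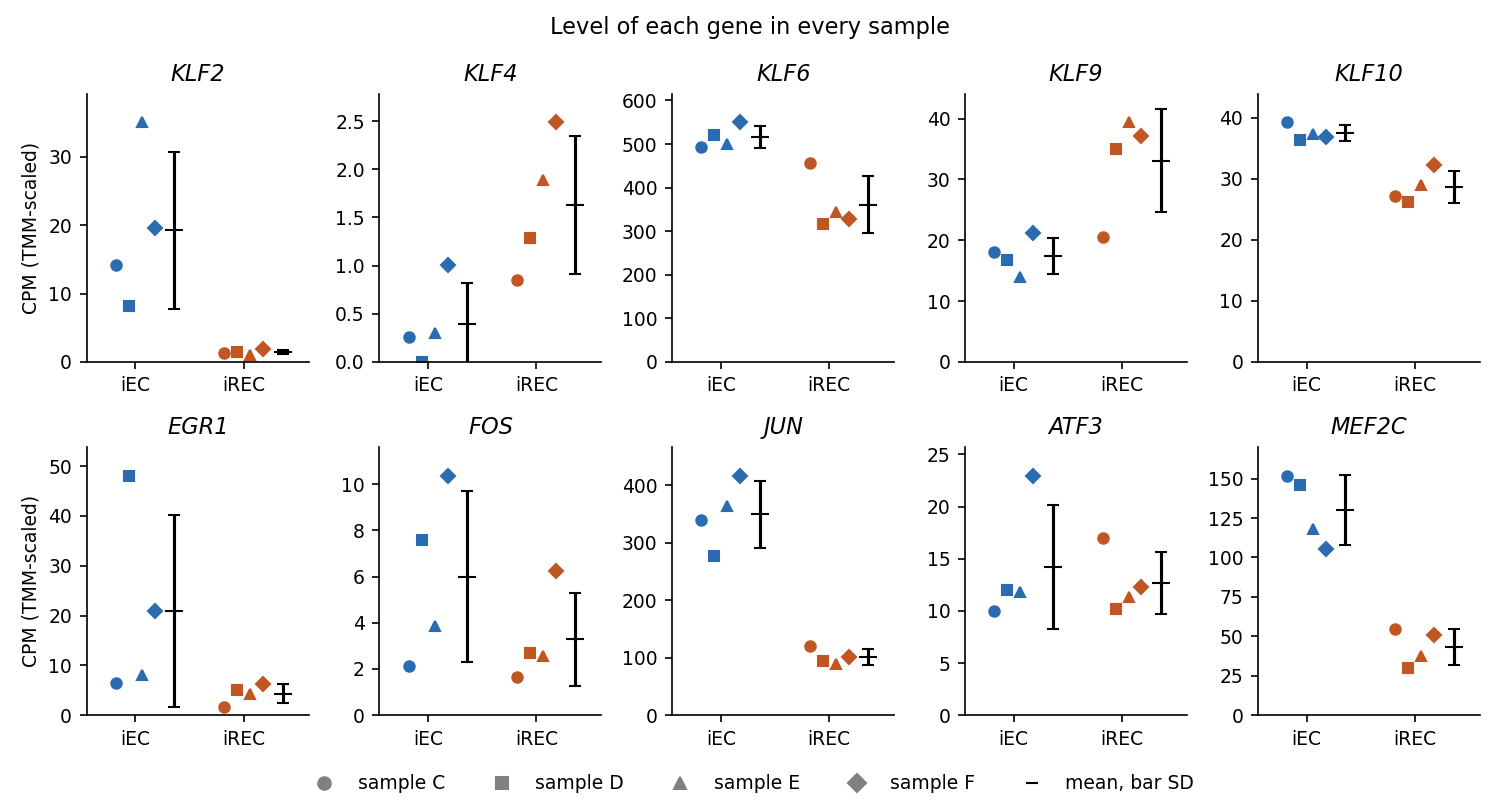
Level of the 10 genes in each sample, in CPM, for 4 iEC and 4 iREC samples. Each point is a sample, the dash is the group mean and the bar its SD, cut at 0 for KLF4. KLF2 lies between 8.15 and 35.0 CPM in iEC and between 1.04 and 1.83 CPM in iREC, while the FOS and ATF3 points of the groups overlap.

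Levels are given in CPM, the count scaled to the library size after TMM normalization. Totals ran from 14877502 to 16971865 counts in iEC and from 13739364 to 15987839 in iREC, and 3 counts, taken as the floor of detection, equalled 0.178 to 0.215 CPM. This floor covers counting error only. Endothelial markers were high in both groups: the 10 listed genes summed to between 7200 and 9172 CPM in iEC and between 4008 and 8844 CPM in iREC, with 1 called higher in iREC and 5 lower. iREC F stood apart with the lowest endothelial sum and the highest sums of epithelial markers (4717 CPM, against 294 to 1045 in the other iREC) and mural or mesenchymal markers (2819 CPM, against 524 to 988). The same 7 members were called without it. Mural or mesenchymal markers were 207 to 366 CPM in iEC, and 2 of 8 tested were called higher in iREC and 1 lower. Epithelial markers summed to 375 to 1068 CPM in iEC, and 1 of 4 tested was called, higher in iREC. Pluripotency markers summed to 40.0 to 92.1 CPM in iEC and 54.2 to 516 CPM in iREC, and of 3 tested 2 were called higher and 1 lower. NANOG had at most 2 counts in any sample. The blood markers summed to 24.5 to 47.6 CPM in iEC against 16.3 to 19.8 CPM for iREC, and of 2 tested 1 was called higher and 1 lower. RUNX1, also a factor of blood-forming endothelium, made up most of that sum and fell from 30.2 ± 10.8 to 15.5 ± 1.07 CPM (SD, n = 4; adjusted p by edgeR 0.0131). PTPRC was the higher, with 0 counts in every iEC sample and at most 42 in iREC, so it passed the count filter through its iREC samples. CSF1R had at most 15 counts in any sample, and SPI1, CD14 and LYZ at most 3. The cardiac muscle markers summed to at most 0.501 CPM (iEC) and 7.99 CPM (iREC). The 4 retinal neuron or pigment epithelium markers present summed to at most 8.25 CPM. Among all tested genes 13.2% were called higher and 11.7% lower in iREC. The part of these markers in the results was not tested.

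MEF2C binds DNA as the end point of the flow relay and is a factor of developing vessels and heart. It stood at 152, 146, 118 and 105 CPM in iEC C, D, E and F and at 55.0, 29.7, 37.8 and 50.6 CPM in iREC, in the same order. Every iREC sample lay below every iEC sample. The log2 fold change was -1.59 ± 0.21 (SE), with an adjusted p by edgeR of 0.000778, and it ran from -1.73 to -1.45 over 15 alternative fits. The gene (ENSG00000081189) spans 88717117 to 88904257 on chromosome 5, minus strand, on GRCh38. Both annotated antisense genes that overlap its exons were low, MEF2C-AS1 with at most 27 counts and MEF2C-AS2 with at most 2, against 416 to 2338 counts for MEF2C; the strand setting of the counting is not known, so their reads cannot be told apart from those of MEF2C. The relatives MEF2A and MEF2D did not pass the test (adjusted p by edgeR 0.905 and 0.186). MEF2C accounted for 29.6% to 40.1% of the summed per-length level of the MEF2 genes in iEC and for 13.4% to 24.8% in iREC.

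KLF2 is the flow-induced factor best known for raising endothelial nitric oxide synthase and thrombomodulin. Its levels were 14.1, 8.15, 35.0 and 19.6 CPM in iEC C, D, E and F, a 4.30-fold spread. The iREC samples, in the same order, had 1.37, 1.499, 1.04 and 1.83 CPM, from 17 to 28 counts per sample. The lowest iEC sample was well above the highest iREC sample. Means were 19.2 ± 11.5 CPM for iEC against 1.44 ± 0.329 CPM for iREC (SD, n = 4). This was a log2 fold change of -3.74 ± 0.46 (SE) at an adjusted p by edgeR of 0.000493, and of the 15330 tested genes 109 had a lower one. Without iEC E, which held the highest value, it was -3.28 (adjusted p by edgeR 0.00101). KLF2 (ENSG00000127528) lies at 16324817 to 16327874 on chromosome 19, plus strand.

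MEF2 factors are known to act on the KLF2 promoter, so the letters upstream of the start site were searched in 9 members. RefSeq promoter windows (GRCh38.p14) were used, and KLF10 was not searched. The search covered the 250 bases before each start, on both strands, for a MEF2 site, a CArG box (the element bound by serum response factor, SRF), the AP-1 site TGANTCA, the cAMP response element TGACGTCA and its variant TGACATCA, which JUN dimers bind. Of 35116 windows of this length, 2.80% held a MEF2 site, 1.16% a CArG box, 6.57% the AP-1 site, 1.65% TGACGTCA and 2.37% TGACATCA. The KLF2 window held a MEF2 site 120 to 111 bases upstream of the start, and the JUN window held a MEF2 site as well as TGACATCA. The EGR1 window held a pair of CArG boxes, 105 to 96 and 83 to 74 bases upstream. These 3 sequences are shown because KLF2, JUN and EGR1 carry sites by which MEF2, JUN and SRF are known to act on them. The part of these sites in the levels measured here was not tested. Capitals mark the matches, 5′ to 3′ on the gene's strand. The KLF2 sequence lies at chr19:16324576-16324816, the EGR1 sequence at chr5:138465229-138465478 and the 30 bases of JUN at chr1:58784089-58784118, which fall inside the first exon of JUN in the annotation of the count table.
KLF2: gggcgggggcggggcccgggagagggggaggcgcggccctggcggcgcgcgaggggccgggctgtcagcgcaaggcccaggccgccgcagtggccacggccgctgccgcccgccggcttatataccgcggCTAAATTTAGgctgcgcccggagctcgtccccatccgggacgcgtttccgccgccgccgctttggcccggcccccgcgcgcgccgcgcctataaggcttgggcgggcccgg
EGR1: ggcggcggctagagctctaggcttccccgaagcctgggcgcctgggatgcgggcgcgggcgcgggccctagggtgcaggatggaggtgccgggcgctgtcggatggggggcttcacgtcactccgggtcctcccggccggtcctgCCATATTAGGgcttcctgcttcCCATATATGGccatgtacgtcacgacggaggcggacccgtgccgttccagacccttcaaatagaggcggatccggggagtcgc
JUN: ggggTGACATCAtgggCTATTTTTAGgggt
Among the other members, KLF6 and ATF3 each held TGACATCA. MEF2C, with 7 windows, held the AP-1 site at 2 positions, TGACATCA at 1 and a MEF2 site at 1. No match was found in the windows of KLF4, KLF9 or FOS, and bases more than 250 upstream of a start were not searched. A match describes the letters of the window and shows no binding in these cells.

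KLF4, the partner of KLF2 under flow and also a factor of epithelial cells and stem cells, was near the floor in iEC. It had 4, 0, 5 and 14 counts in iEC C, D, E and F and 13, 18, 31 and 38 counts in iREC, in the same order. Its 0 in iEC D allows up to 0.190 CPM. The groups overlapped, since iEC F (1.002 CPM) lay above iREC C (0.851 CPM). KLF4 passed the count filter through its iREC samples. The log2 fold change was 2.07 ± 0.78 (SE) and was not called (adjusted p by edgeR 0.0811). The adjusted p was 0.0442 with DESeq2 and 0.0450 with limma-voom, and the authors' deposited table lists 0.0407. Without iEC F the log2 fold change was 3.07, with an adjusted p by edgeR of 0.0256. KLF4 was highest in sample F of each group, and these samples also had the highest epithelial and mural or mesenchymal marker sums of their groups; their part in the KLF4 levels was not tested. Without iREC F the log2 fold change was 1.80 (adjusted p by edgeR 0.142). KLF4 (ENSG00000136826) lies at 107484852 to 107490482 on chromosome 9, minus strand.

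Scaled by gene length, KLF2 went from 9.53 ± 5.72 to 0.712 ± 0.163 CPM per kb and KLF4 from 0.106 ± 0.117 to 0.445 ± 0.195 CPM per kb (SD, n = 4). In iEC every KLF2 value per kb was above every KLF4 value. In iREC their ranges overlapped, 0.514 to 0.909 CPM per kb for KLF2 and 0.232 to 0.680 CPM per kb for KLF4.

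**Figure D2:**
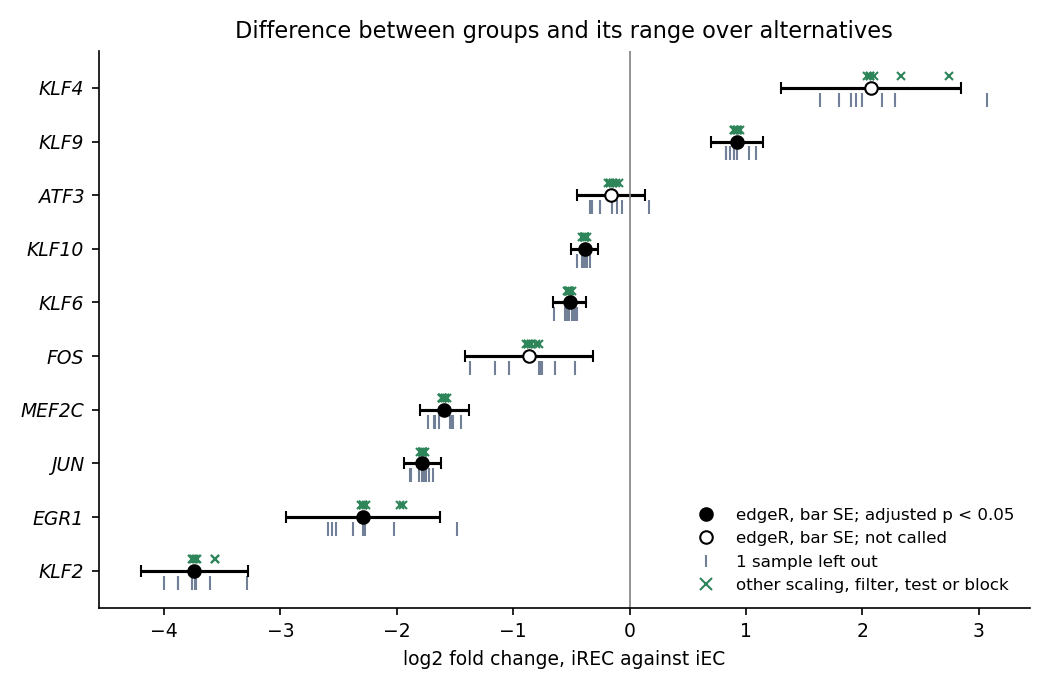
Log2 fold change of iREC against iEC for each gene, from edgeR with its SE (filled where the adjusted p is under 0.05), with the values after leaving out each sample in turn (ticks) and under other settings (crosses). KLF2, EGR1, JUN and MEF2C lie below -1.4 in every fit, and ATF3 moves across 0 without iEC F.

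KLF6, an injury-response factor of the vessel wall, was the most abundant of the family. It stood at 493, 520, 500 and 550 CPM in iEC C, D, E and F and at 456, 316, 344 and 328 CPM in iREC, in the same order. iREC C lay close to the iEC samples and the other iREC samples well below them. Its log2 fold change was -0.51 ± 0.14 (SE; adjusted p by edgeR 0.0254). The call was lost without iEC E, iREC D or iREC E (adjusted p by edgeR 0.0530, 0.0845 and 0.0613).

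KLF10, an early target of TGF-beta, varied little within iEC: 39.3, 36.4, 37.4 and 36.8 CPM in C, D, E and F. The iREC samples, in the same order, had 27.2, 26.2, 28.9 and 32.3 CPM, below every iEC sample. The change was small, at a log2 fold change of -0.39 ± 0.11 (SE; adjusted p by edgeR 0.0351). The call was lost when iEC C, D or E, or iREC C, D or E, was left out (adjusted p by edgeR 0.0534 to 0.115).

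KLF9, a target of the glucocorticoid receptor, was the member that rose. It was 18.0, 16.7, 13.9 and 21.1 CPM in iEC C, D, E and F and 20.6, 35.0, 39.4 and 37.1 CPM in iREC, in the same order. iREC C lay inside the iEC range, and the other 3 iREC samples lay above it. It rose by a log2 fold change of 0.92 ± 0.22 (SE; adjusted p by edgeR 0.0148), and it was 0.82 without iEC E, where the call was lost (adjusted p by edgeR 0.0520). iREC C was thus nearest to iEC for both KLF6 and KLF9, as it was for KLF4, JUN and MEF2C. For KLF2, KLF10 and EGR1 the nearest was iREC F. The epithelial marker sum of iREC C was the lowest of the iREC samples (294 CPM). Its mural or mesenchymal sum was not (948 CPM, against 524 CPM in iREC E). The part of these markers in the levels was not tested.

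KLF family genes were called in both directions. The count table held 16 of them. Of the 14 tested, 5 were called higher and 5 lower in iREC, against 13.2% and 11.7% of all tested genes. Of the 5 higher, KLF8 and KLF15 were near the floor in iEC, with at most 5 and 6 counts, and passed the count filter through their iREC samples, which had at most 44 and 38 counts. Among the 9 tested family genes outside the member list, 4 were called higher and 2 lower, with a median log2 fold change of -0.33 against 0.020 over all tested genes. With a stricter filter, which removes genes of low count, 3 of these were called. KLF12, a transcriptional repressor, rose from 10.3 ± 3.63 to 32.2 ± 2.17 CPM, and KLF11, a TGF-beta-responsive relative of KLF10, from 10.6 ± 2.16 to 24.6 ± 4.16 CPM (SD, n = 4; adjusted p by edgeR 0.00105 and 0.00257). KLF3 and KLF7 were called lower, with log2 fold changes of -0.45 ± 0.14 and -0.76 ± 0.22 (SE; adjusted p by edgeR 0.0484 and 0.0327). Each lost its call in 6 of the 8 fits that left out a sample; KLF3 kept it without iEC E or iEC F, and KLF7 without iEC D or iREC C. KLF3 also lost it in 5 of the 7 alternatives with all samples. Their adjusted p by edgeR reached 0.134 and 0.0849.

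**Figure D3:**
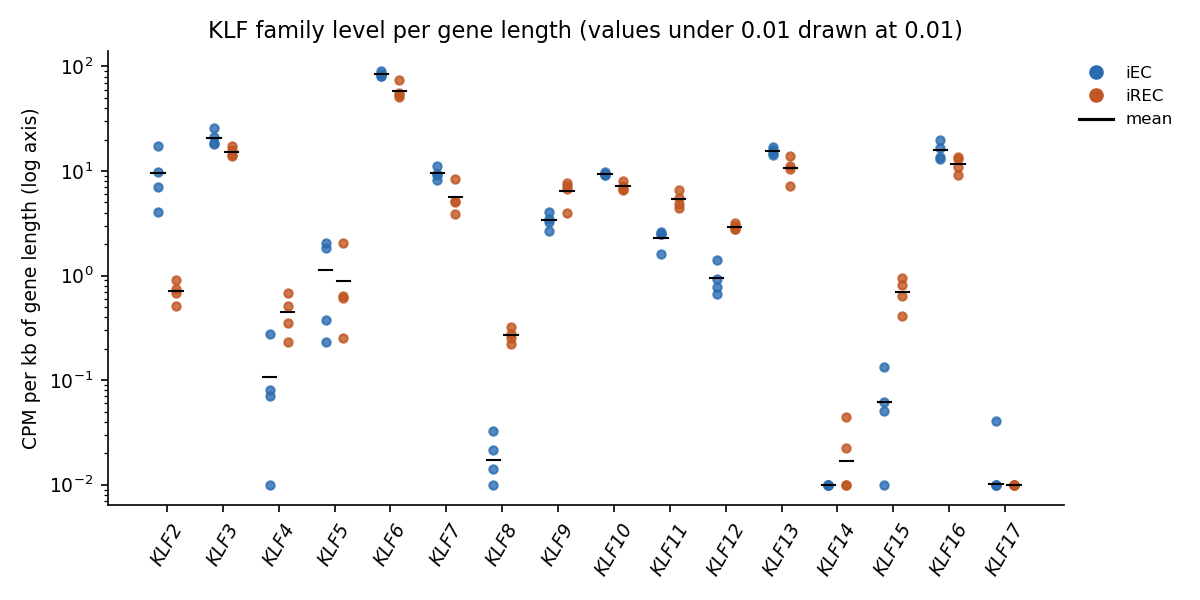
Level of the 16 KLF family genes in the table, in CPM per kb of gene length on a log axis, with a point per sample and a line at the group mean. KLF6 is highest in both groups, at 84.0 and 58.8 CPM per kb, and KLF2 drops from near the level of KLF10 to that of KLF15.

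KLF6 held 47.0% to 50.3% of the summed per-length level of the family in iEC and 43.7% to 51.0% in iREC, so its share overlapped between groups. KLF2 held 2.40% to 10.01% in iEC and 0.412% to 0.744% in iREC. The share of KLF9 was 1.55% to 2.26% in iEC and 2.73% to 6.09% in iREC. The family sum was 167 to 181 CPM per kb in iEC and 115 to 146 CPM per kb in iREC.

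JUN, the main partner in AP-1, gave the lowest adjusted p of the 10 genes. It stood at 339, 278, 364 and 417 CPM in iEC C, D, E and F and at 121, 94.1, 89.7 and 101 CPM in iREC, in the same order. The groups were far apart and each was narrow. The log2 fold change was -1.78 ± 0.16 (SE), with an adjusted p by edgeR of 9.87e-05, and it ran from -1.89 to -1.69 over the alternatives. JUN (ENSG00000177606) lies at 58780788 to 58784327 on chromosome 1, minus strand, as a single exon.

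FOS was low and variable. It was 2.15, 7.58, 3.85 and 10.4 CPM in iEC C, D, E and F and 1.64, 2.71, 2.56 and 6.22 CPM in iREC, in the same order. The groups overlapped. The log2 fold change of -0.86 ± 0.55 (SE) was not called (adjusted p by edgeR 0.285), and its sign did not change in any alternative. FOS and KLF4 were both highest in sample F of each group.

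ATF3, a stress-induced factor that also pairs with JUN, was 9.95, 12.01, 11.8 and 23.0 CPM in iEC C, D, E and F and 16.9, 10.1, 11.3 and 12.3 CPM in iREC, in the same order. The highest sample was iEC F and the next iREC C, and the rest lay between 9.95 and 12.3 CPM. Its log2 fold change was -0.16 ± 0.29 (SE; adjusted p by edgeR 0.725), and 0.17 without iEC F.

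EGR1, a zinc finger factor induced by growth factors and by the onset of flow, was unequal within iEC. It was 6.44, 48.1, 7.99 and 21.0 CPM in iEC C, D, E and F, a 7.47-fold spread. The iREC samples, in the same order, had 1.70, 5.07, 4.15 and 6.16 CPM. iEC C was just above iREC F, so the groups did not overlap. Its log2 fold change was -2.29 ± 0.66 (SE; adjusted p by edgeR 0.0327). Without iEC D it was -1.48, and the call was lost (adjusted p by edgeR 0.0776). It was also lost without iEC F, iREC C, iREC D or iREC E (adjusted p by edgeR 0.0584 to 0.0807) and with limma-voom (adjusted p 0.0975). EGR1 (ENSG00000120738) lies at 138465490 to 138469315 on chromosome 5, plus strand.

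The members differed in how much they varied within a group. The SD of log2 CPM over the 4 iEC samples was 1.33 for EGR1, 1.28 for KLF4, 0.99 for FOS and 0.87 for KLF2, above that of 97.4%, 97.0%, 93.0% and 90.4% of tested genes. For KLF10 and KLF6 it was 0.048 and 0.071, above that of 1.39% and 3.41%. JUN, KLF9 and MEF2C lay between, at 38.5%, 39.1% and 39.4%, and ATF3 at 74.1%. The median over tested genes was 0.31 in iEC and 0.28 in iREC. In iREC the SD was 0.31 for KLF2, 0.78 for EGR1, 0.77 for FOS and 0.62 for KLF4, each lower than in iEC. KLF6 was more variable there than in iEC (SD 0.24), above 42.2% of tested genes. So were KLF9, MEF2C and KLF10, at 0.43, 0.41 and 0.13. KLF4 and FOS had few counts, as did KLF2 (17 to 28) and EGR1 (26 to 94) in iREC, and their spread includes counting error.

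Of the other FOS and JUN family genes, JUNB and JUND also fell (adjusted p by edgeR 0.0163 and 0.00105). All 3 JUN genes were thus called lower in iREC, against 11.7% of all tested genes. Within the FOS family, FOSL1, the gene of FRA1, fell from 87.4 ± 23.8 to 20.8 ± 7.44 CPM, and FOSL2, the gene of FRA2, rose from 70.2 ± 8.67 to 136 ± 40.4 CPM (SD, n = 4; adjusted p by edgeR 0.000969 and 0.00948). Per length, FOSL1 made up 74.8% to 84.0% of the FOS family sum in iEC and 29.5% to 42.2% in iREC. FOSL2 made up 14.3% to 20.4% in iEC and 55.0% to 67.1% in iREC. FOS itself was 1.24% to 5.28% in iEC and 2.38% to 4.504% in iREC.

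**Figure D4:**
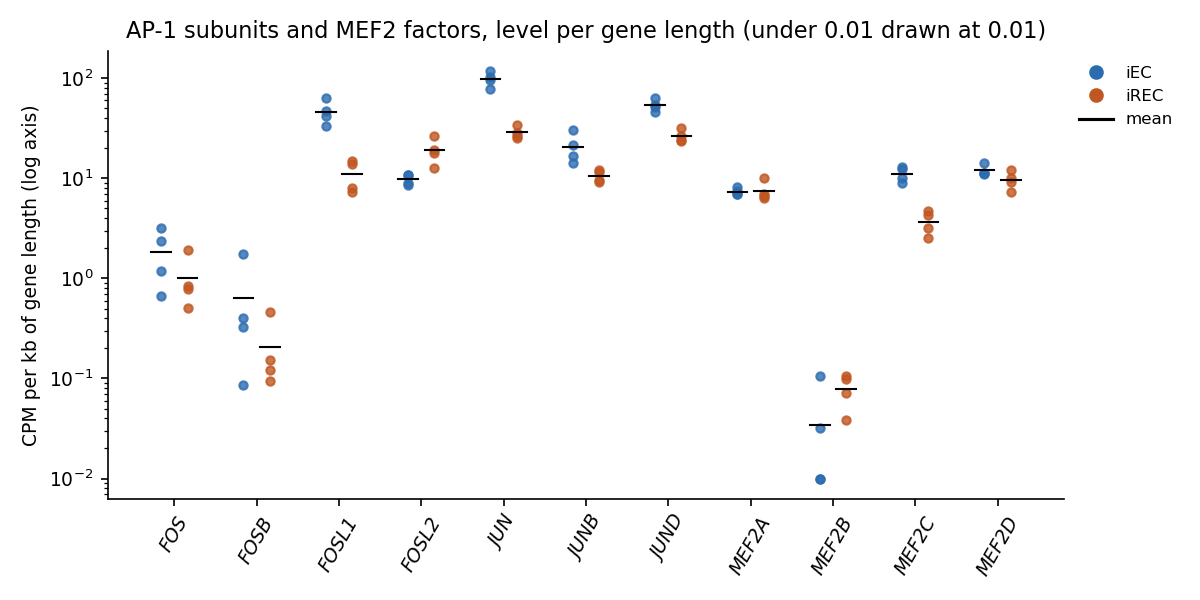
Level of the FOS, JUN and MEF2 family genes in CPM per kb of gene length on a log axis, with a point per sample and a line at the group mean. The points of JUN, JUND, FOSL1 and MEF2C lie lower in iREC and those of FOSL2 higher, with no overlap between the groups.

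The list of other AP-1 subunits and ATF factors had 9 of 18 tested genes called, against 25.0% of all tested genes. Of these 9, 3 were higher and 6 lower (median log2 fold change of the list -0.30). BATF3, called higher, had at most 8 counts in iEC and passed the count filter through its iREC samples, which had at most 62. Without iEC E, 5 were called. MAFF, a small MAF protein, fell from 98.8 ± 29.9 to 13.2 ± 6.09 CPM (SD, n = 4; adjusted p by edgeR 0.000565). JDP2, a repressor that binds JUN, rose with a log2 fold change of 1.19 ± 0.33 (SE; adjusted p by edgeR 0.0268), and lost the call without iEC D, E or F or iREC C or F (adjusted p up to 0.0685).

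Of 18 other immediate early genes tested, 11 were not called, 2 were called higher and 5 lower (median log2 fold change -0.44). The shares over all tested genes were 13.2% higher and 11.7% lower. DUSP2, called higher, had at most 5 counts in iEC and passed the count filter through its iREC samples, which had at most 27. IER5, a serum-induced gene of the heat shock response, fell from 45.4 ± 5.18 to 17.7 ± 1.19 CPM and DUSP5, a nuclear phosphatase for ERK, from 193 ± 42.6 to 81.5 ± 26.8 CPM (SD, n = 4; adjusted p by edgeR 0.000142 and 0.00545). SRF, whose protein is known to bind CArG boxes, rose from 70.0 ± 8.62 to 122 ± 21.2 CPM (adjusted p by edgeR 0.00484). Its binding to the boxes printed above for EGR1 was not tested. DUSP1, an ERK and p38 phosphatase, was 157 ± 43.6 and 154 ± 110 CPM and was not called.

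**Figure D5:**
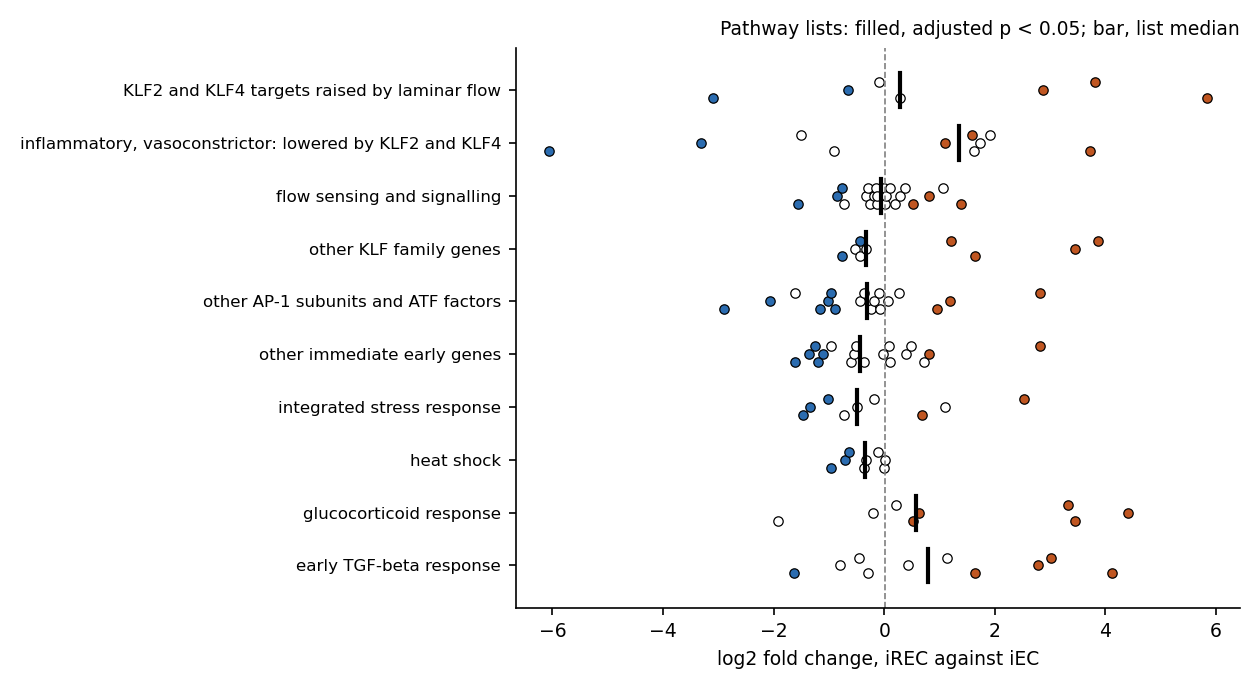
Log2 fold change of iREC against iEC for each tested gene of the 10 pathway lists, filled where the adjusted p by edgeR is under 0.05 (orange higher, blue lower in iREC) and open otherwise. The bar marks the list median and the dashed line the median of all tested genes, 0.020; called genes stand on both sides in 8 of the 10 lists.

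Genes that KLF2 and KLF4 are known to raise under flow were called in both directions. Of 7 tested, 3 were called higher and 2 lower (median log2 fold change 0.28), against 13.2% and 11.7% of all tested genes. NOV, called lower, had at most 9 counts in iREC and passed the count filter through its iEC samples, which had at most 118. THBD, the gene of thrombomodulin, fell from 318 ± 67.7 to 201 ± 49.5 CPM (SD, n = 4; adjusted p by edgeR 0.0484). That call was lost without iEC C, D or E or iREC D, E or F, with an adjusted p of up to 0.134. It was also lost with scaling by library size alone and with the stricter filter (adjusted p 0.0578 and 0.0531). NOS3, the gene of endothelial nitric oxide synthase, averaged 118 ± 15.1 CPM for iEC against 143 ± 41.1 CPM for iREC, with no call (adjusted p by edgeR 0.364). AQP1, a water channel, rose from 2.52 ± 1.19 to 145 ± 96.0 CPM and TEK, the angiopoietin receptor TIE2, from 58.9 ± 20.6 to 833 ± 272 CPM (SD, n = 4; adjusted p by edgeR 0.00216 and 0.000110). The iREC samples were split for AQP1, with 7.001 CPM in iREC C and 151, 203 and 217 CPM in iREC D, E and F. The highest iEC sample, iEC D, had 3.603 CPM. AQP1 was not called with limma-voom (adjusted p 0.0820). With limma-voom, with the stricter filter, or without iEC E, iREC D or iREC E, 3 genes of the list were called.

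Inflammatory and vasoconstrictor genes that KLF2 and KLF4 are known to hold down also went both ways. Of 10 tested, 3 were called higher and 2 lower (median log2 fold change 1.34), against 13.2% and 11.7% of all tested genes. SELE, called higher, had at most 23 counts in iEC and passed the count filter through its iREC samples, which had at most 221. ANGPT2, a ligand of TIE2, fell from 1777 ± 234 to 26.5 ± 5.07 CPM, and CXCL8, the gene of interleukin 8, from 507 ± 268 to 51.0 ± 34.3 CPM (SD, n = 4; adjusted p by edgeR 1.49e-06 and 0.00705). THBS1, the gene of thrombospondin 1, rose from 1480 ± 302 to 4460 ± 1540 CPM (adjusted p by edgeR 0.00359). EDN1, the gene of the vasoconstrictor endothelin 1, rose from 167 ± 33.1 to 357 ± 141 CPM (adjusted p by edgeR 0.0217). EDN1 was not called without iEC D, iEC E or iREC E (adjusted p 0.0527 to 0.0650).

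Upstream of the KLF genes, 6 of 22 tested flow sensing and signalling genes were called, a share close to the 25.0% called over all tested genes, and 16 were not. The relay kinases MAP3K3 (the gene of MEKK3), MAP2K5 (of MEK5) and MAPK7 (of ERK5) had log2 fold changes of -0.26, -0.14 and -0.18 (adjusted p by edgeR 0.127, 0.633 and 0.412). The mechanosensitive channel PIEZO1 was 275 ± 56.5 and 297 ± 55.3 CPM (SD, n = 4) and was not called. Of the 6 called, PECAM1, a junctional part of the flow sensor, fell from 2233 ± 286 to 754 ± 175 CPM, and CCM2, an adaptor that restrains MEKK3, from 98.5 ± 12.5 to 54.4 ± 2.33 CPM (adjusted p by edgeR 0.000632 and 0.000889). PKD2, the gene of the cilium channel polycystin 2, rose from 60.2 ± 5.98 to 157 ± 38.5 CPM, and MAP3K2, the gene of MEKK2, from 24.7 ± 2.09 to 43.5 ± 10.8 CPM (adjusted p by edgeR 0.000555 and 0.0123). The list median was -0.064.

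The glucocorticoid response list, to which KLF9 relates, had 5 of 8 tested genes called, all 5 higher in iREC (median log2 fold change 0.57). KLF15, near the floor in iEC, and ZBTB16, with at most 18 counts there, were among them. Both passed the count filter through their iREC samples. Of all tested genes, 13.2% were called higher. The list summed to 218 to 312 CPM in iEC and 208 to 266 CPM in iREC. MT2A had a log2 fold change of -1.92 and was not called (adjusted p by edgeR 0.107). ZBTB16, a zinc finger repressor, rose from 0.542 ± 0.478 to 11.6 ± 7.03 CPM, and ANGPTL4, a lipase inhibitor, from 2.13 ± 1.44 to 21.2 ± 5.48 CPM (SD, n = 4; adjusted p by edgeR 0.00211 and 0.00100). Without iEC D the log2 fold change of ZBTB16 went from 4.41 to 5.08. FKBP5 and TSC22D3, both standard readouts of the receptor, had log2 fold changes of -0.21 and 0.22 and were not called (adjusted p by edgeR 0.450 and 0.585).

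The early TGF-beta response list, to which KLF10 relates, had 4 of 10 called higher and 1 lower (median log2 fold change 0.78). It had 3 called without iEC C, iEC E or iEC F. Among all tested genes 13.2% were called higher and 11.7% lower. SMAD7, called higher, had at most 13 counts in iEC and passed the count filter through its iREC samples, which had at most 270. BAMBI, a decoy receptor, rose from 4.43 ± 0.707 to 35.9 ± 11.5 CPM, and TGIF1, a corepressor, fell from 32.1 ± 2.35 to 10.4 ± 5.75 CPM (SD, n = 4; adjusted p by edgeR 0.000105 and 0.00697). ID2, an inhibitor of helix-loop-helix factors, had a log2 fold change of 2.79 ± 0.82 (SE; adjusted p by edgeR 0.0353). Without iREC F the value for ID2 was 1.44, and the call was lost there and without iEC C, D, E or F or iREC D (adjusted p up to 0.0956), and with limma-voom (adjusted p 0.139).

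The integrated stress response list, to which ATF3 relates, had 2 called higher, 3 lower and 4 not called of 9 tested (median log2 fold change -0.49). The shares over all tested genes were 25.0% called, 13.2% higher and 11.7% lower. TRIB3, a pseudokinase induced by that response, fell from 111 ± 6.89 to 39.7 ± 6.25 CPM, and CHAC1, a glutathione-degrading enzyme, from 22.5 ± 7.79 to 8.83 ± 2.20 CPM (SD, n = 4; adjusted p by edgeR 0.000110 and 0.00830). VLDLR, a lipoprotein receptor, rose from 7.92 ± 1.24 to 45.8 ± 8.63 CPM (adjusted p by edgeR 4.36e-05). XBP1, a factor of the unfolded protein response, rose with a log2 fold change of 0.68 ± 0.19 (SE; adjusted p by edgeR 0.0290) and lost the call without iEC E or F or iREC D or F (adjusted p up to 0.0846). Of 8 heat shock genes 3 were called, all lower (median log2 fold change -0.34), among them the co-chaperones BAG3, from 119 ± 11.7 to 60.9 ± 14.1 CPM, and DNAJB1, from 119 ± 16.7 to 72.5 ± 11.2 CPM (SD, n = 4; adjusted p by edgeR 0.00415 and 0.00840).

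Over the 10 lists without the members, 118 genes were tested and 55 called, 28 higher and 27 lower in iREC. Among all tested genes 25.0% were called, 13.2% higher and 11.7% lower. The lists were chosen with earlier results of these data known, so these counts describe the lists and test nothing.

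For 5 members, the protein-coding genes with the most similar profile over the 8 samples were found by the root mean square difference of log2 CPM after removing each gene's mean, among the 9524 or 9525 genes whose mean reached 10 CPM. Nearest to KLF2 were C16orf74, COL13A1 (a transmembrane collagen) and ARHGAP24, at differences of 0.33, 0.34 and 0.36, against a median of 1.81 over the genes compared. Nearest to MEF2C were FGFR1, CTSC and NEDD1, at 0.21 to 0.22 against a median of 0.86. Nearest to EGR1 were APOLD1, an immediate early gene of endothelial cells, U2AF1L5 and LIPG, the gene of endothelial lipase, at 0.65 to 0.67 against 1.36. U2AF1L5 is a near copy of U2AF1, so its counts are uncertain. Nearest to FOS were LAMA5, LIPG and NIPAL3, at 0.44 to 0.45 against 0.89, and near to KLF4 were RASSF4 and INHBA, at 0.51 and 0.55 against 1.41. All 8 samples enter these profiles, so a shared group difference counts toward the likeness. Taken the same way, the deviation from the member's mean was 1.82 for KLF2, 1.35 for EGR1 and KLF4, and 0.86 for MEF2C and FOS. The medians lay close to these values, so they mostly follow how much the member itself varied.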

How the data were processed

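Per the labels' protocols, messenger RNA was selected with poly-T beads and the second cDNA strand made with dUTP. The submitters' processing notes name fastp, HISAT2 2.0.5 and the hg38 build; the counting program and its use of strand are not given in the sources used here. The authors deposited raw read counts per gene and sample, gene lengths, and their own log2 fold changes and adjusted p-values. Member coordinates matched GENCODE 29 on GRCh38; start sites and promoter windows are RefSeq's.

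The deposited counts were filtered with filterByExpr, scaled by TMM, and tested across all genes with edgeR 4.0.16 (quasi-likelihood F-test, group as the only term, Benjamini-Hochberg adjustment). SEs come from the coefficient and F statistic. CPM uses scaled libraries, and log2 CPM a prior count of 2. DESeq2 1.42.0 and limma 3.58.1 were alternatives, with other scalings, filters, the replicate letter as a block and each sample left out. The fits were tested on simulated counts. Named are the members, up to 2 called genes per list and direction with a mean of at least 10 CPM, and the 3 nearest profiles of 5 members, of which 1 is not reported here. JUNB, JUND, NOS3, DUSP1, the uncalled relay genes, PIEZO1, MEF2A, MEF2D, FKBP5 and TSC22D3 were added after their values were seen. So were MT2A, DUSP2, BATF3, SMAD7, NOV and SELE. The members and lists were chosen with earlier results of these data known.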

Additional observations from a re-analysis of the deposited data

How the results depend on the processing

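Over 15 alternatives each, KLF2, JUN and MEF2C kept their direction and call in every fit, and KLF9 in all but the fit without iEC E. The members called numbered 5 to 8 with all samples (6 without a filter, 8 with DESeq2, 5 with the replicate block) and 4 to 7 with a sample left out. The called list genes numbered 47 to 64 and 42 to 54. The share called over all tested genes was 25.0% in the main edgeR fit and is not given for the alternatives. These counts, and those of single lists above, therefore do not tell a change in these genes from one over all genes. EGR1 was -1.95 with limma-voom and -2.59 to -1.48 over the fits that left out a sample; KLF10 was -0.41 with no filter, where it was not called, and -0.45 to -0.34; KLF6 ran from -0.65 to -0.45, KLF9 from 0.82 to 1.09 and ATF3 from -0.34 to 0.17 (log2 fold changes). KLF4 was called with DESeq2 (2.07), limma-voom (2.74) and without iEC F (3.07, in a range from 1.64); the stricter filter left it untested. The cause of these changes was not tested. With the replicate block KLF6 (-0.53) and KLF10 (-0.39) were not called. Same-letter samples correlated across genes, as deviations from group means, at 0.17, -0.079, 0.029 and 0.25 for C, D, E and F. Samples of different letters correlated at -0.22 to 0.18. The same-letter value lay above all of these for F only, which does not settle pairing. The letters were not taken as pairs, and the replicate block is given as an alternative. None of the 20 member groups held a sample far apart from the rest by Dixon's criterion (0 of 20), a test of little power with 4 samples; the widest gaps, as a share of the group's range, were 0.819 for KLF9 in iREC C, 0.776 for ATF3 in iEC F and 0.769 for KLF6 in iREC C, just under the limit. KLF4, with at most 38 counts in a sample, is limited by depth.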
